A study of Mus musculus with 4 samples.

Results

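The genes described here encode 10 proteins that are secreted into plasma and belong to the acute phase response: Ttr, Ahsg, Itih2, Saa3, Fgb, Fgg, Cp, Hp, Serping1 and Mbl2. They were measured in brown adipocytes that expressed NT-PGC-1α, a shorter, N-terminal isoform of the transcriptional coactivator PGC-1α, or that carried an empty vector. On the array they had 12 of 33012 probes. Of these, 11 are paired with their symbols in the study's own list of changed genes (Saa3 has 2 of them), and 1 more probe shares its gene identifier, mCG17068.1, with Fgb. The study listed these genes because their signal was lower in NT-PGC-1α cells on these same arrays, by more than 1.5-fold. It also required a p value below 0.05, and its pathway analysis grouped them as acute phase response signaling. Direction and size of the decrease, and closeness of the arrays within a group, therefore chose the genes. They are given below as a description, with no test, and they do not support anything.

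Both groups were immortalized brown preadipocytes of the FVB mouse strain that had been transduced with lentivirus, and they differed in the insert: HA-tagged NT-PGC-1α in one and none in the empty vector group. Both were differentiated the same way, with 2 days of induction followed by 5 days of maintenance. Insulin (20 nM) and triiodothyronine (1 nM) were present throughout, and during induction dexamethasone (2 µg/ml), isobutylmethylxanthine (0.5 mM) and indomethacin (250 µM) were added. Dexamethasone, a glucocorticoid, was thus part of the treatment of both. RNA of each group was combined in 1 pool, and each pool was hybridized to 2 single-colour ABI arrays, A and B. The sources used here differ on how many RNA samples entered a pool. Arrays A and B are technical replicates, so each group is 1 sample, every fold compares 2 pools, and its error is the spread between arrays.

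The acute phase response is the change in plasma proteins that follows infection or injury. It is led by the liver, where interleukin-6, interleukin-1 and glucocorticoids act on hepatocytes through STAT3, NF-kappaB, C/EBP factors and the glucocorticoid receptor. Proteins that go up, such as serum amyloid A, haptoglobin, ceruloplasmin and the fibrinogen chains, are called positive reactants, and those that go down, such as transthyretin and fetuin-A, negative reactants. Adipocytes and preadipocytes also make several of them, and haptoglobin and Saa3 are well known products of adipose tissue.

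Signals are chemiluminescent intensities in arbitrary units after quantile normalization of the 4 arrays, whose median was then 420.3 on each. As deposited, the medians lay between 395 and 448. Arrays of one pool correlated at r = 0.990 and 0.991 over all probes, and arrays of different pools at 0.956 to 0.957, values across probes that are no replicates. Probes differ in how brightly they respond, so signals are compared between arrays and not between genes. Folds were taken between the means of log2 signals, and the range of a fold is over the 4 pairings of an empty vector array with an NT-PGC-1α array. A probe is counted as lower or higher when the fold was at least 1.5 and the arrays of the pools did not overlap. By this rule 5802 probes, 17.6% of all, were lower with NT-PGC-1α and 5565, 16.9%, were higher. Whatever the fold, the arrays of the pools did not overlap for 71.7% of all probes, so lack of overlap alone was usual. Symbols could be given to few probes, and 31377 stayed without one. Of 13 adipocyte markers 2 had a named probe. Resistin (Retn) had signals of 851 and 1016 in the empty vector pool against 1663 and 1534 in the NT-PGC-1α pool. The listed probe for Ppargc1a, the gene from which NT-PGC-1α comes, had 114 and 136 in the empty vector pool against 1078 and 714 in the NT-PGC-1α pool, a 7.06-fold difference (5.26 to 9.46) in the direction of the labels. A further probe with the same gene identifier was 1.63-fold higher (1.14 to 2.32), with 226 and 148.6 against 258 and 345. Ucp1, Cidea and the other adipocyte markers were not analysed here. In RNA from a whole culture, fewer cells of one kind and less RNA per cell cannot be told apart.

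The promoters are shown first because acute phase genes are known for binding sites close to their start. RefSeq windows of GRCm38.p6, from 250 bases before to 50 bases after a gene's start, were at hand for Ahsg, Itih2, Saa3, Fgb, Fgg, Mbl2 and Cp, with 2 windows for Cp and 8 in all. Windows for Ttr, Hp and Serping1 were not used here. The C/EBP pattern TTGCNNAA, searched on both strands, was in 5 of these 8 windows, against 10.8% of all 32851 windows. By gene it was in 5 of the 7. The 110 bases before the start are printed for these 5 genes, 5′ to 3′ on the gene's strand, with the C/EBP match in capitals.
Itih2, chr2:10130684-10130793, minus strand: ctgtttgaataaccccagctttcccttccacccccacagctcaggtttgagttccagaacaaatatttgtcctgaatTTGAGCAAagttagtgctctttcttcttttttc
Cp, chr3:19957139-19957248, plus strand: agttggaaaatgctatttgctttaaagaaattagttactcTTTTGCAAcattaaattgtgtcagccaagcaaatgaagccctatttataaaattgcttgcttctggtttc
Fgb, chr3:83049864-83049973, minus strand: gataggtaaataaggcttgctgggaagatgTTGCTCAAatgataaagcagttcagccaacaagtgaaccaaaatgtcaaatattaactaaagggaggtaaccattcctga
Saa3, chr7:46715677-46715786, minus strand: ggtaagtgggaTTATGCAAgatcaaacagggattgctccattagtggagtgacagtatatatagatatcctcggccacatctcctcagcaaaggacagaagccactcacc
Ahsg, chr16:22891905-22892014, plus strand: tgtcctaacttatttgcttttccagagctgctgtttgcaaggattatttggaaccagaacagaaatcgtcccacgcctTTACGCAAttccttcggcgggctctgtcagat

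The match lay 33 to 26 bases before the start in Itih2, 32 to 25 in Ahsg, 70 to 63 in Cp, 80 to 73 in Fgb and 99 to 92 in Saa3. None of them overlapped another pattern that was searched. The STAT pattern TTCNNNGAA was found in Fgb alone among the 7 genes and in 8.3% of all windows. The glucocorticoid receptor pattern ACANNNTGT was also found in Fgb alone, against 6.85%. The HNF1 half-site GTTAAT was in the windows of Cp and Fgb, against 7.1% of all windows. The nuclear receptor half-site AGGTCA was in those of Fgg and Mbl2, against 16.3%. For the TATA box TATAAA, the count was Cp alone, against 13.6% of all windows. The NF-kappaB pattern GGGANTTTC was in 0 of the 7 genes and in 1.11% of all windows. Each of these is a match of letters in a window chosen by length, no binding of any factor was measured, and the genes were few.

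All 11 listed probes of the 10 genes were lower with NT-PGC-1α, from 6.45-fold for Ttr to 1.64-fold for Mbl2, which lay nearest to the selection threshold. The named genes of the plasma protein lists described below all came from the study's list of changed genes. That list held no decrease smaller than the threshold, so a gene just outside it could not appear. The median was 3.23-fold lower, with medians of 2.99 to 3.35-fold over the pairings, or -1.69 on the log2 scale against 0.01 for all probes. For 7 of the 11 probes the decrease was at least 2-fold with no overlap, as it was for 2892 of all 33012 probes. Since the decrease chose these genes, their counts are set beside all probes, 17.6% of them lower at 1.5-fold, only to show the background.

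**Figure D1:**
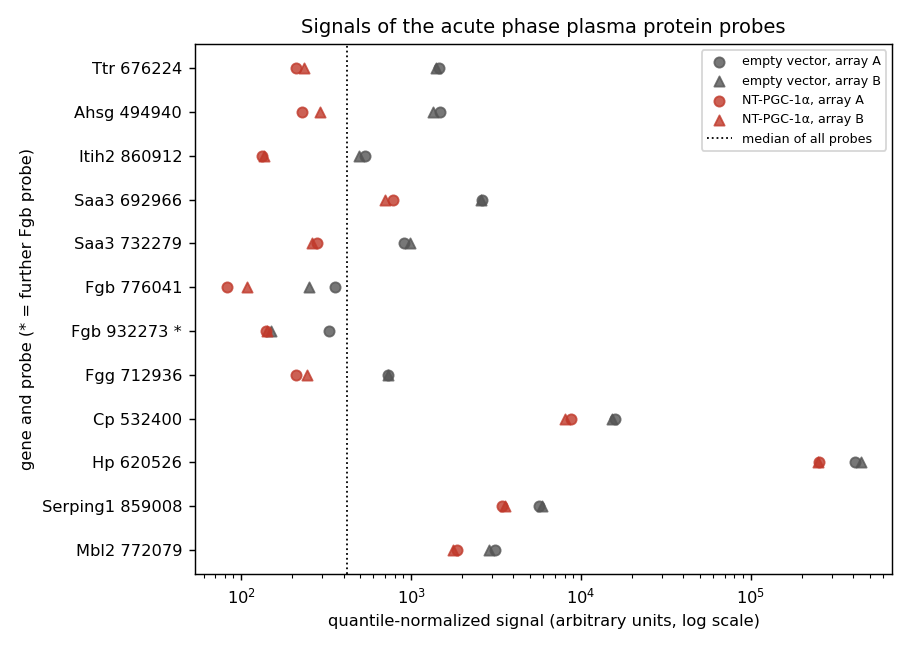
Quantile-normalized signal (arbitrary units, log axis) of each probe on the 4 arrays, with grey for empty vector, red for NT-PGC-1α, circles for array A and triangles for array B. The red and grey points are apart for all 12 probes, by little for the further Fgb probe, as they were for 71.7% of all probes. The dotted line is the median of all probes, 420.3.

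Ttr encodes transthyretin, the plasma carrier of thyroxine and of retinol-binding protein. Its signal was 1454 and 1401 in the empty vector pool against 210.5 and 232 in the NT-PGC-1α pool. Both NT-PGC-1α arrays were far below both empty vector arrays, and the pools differed 6.45-fold (6.03 to 6.91 over the pairings). By size of decrease Ttr stood at place 141 of all 33012 probes. Ahsg encodes fetuin-A, a mineral-binding protein that also inhibits the insulin receptor. Signals of 1482 and 1346 with empty vector stood against 226 and 292 with NT-PGC-1α. The groups did not overlap, and the decrease was 5.49-fold (4.60 to 6.55). Both transcripts crossed the median of all probes, from above it with empty vector to below it with NT-PGC-1α.

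Itih2 encodes heavy chain 2 of the inter-alpha-trypsin inhibitor family, proteins that are transferred onto hyaluronan and stabilize the matrix around cells. It gave 532 and 491 in the empty vector pool against 133 and 136 in the NT-PGC-1α pool. The arrays of a pool were close to each other and the pools did not overlap. The decrease was 3.81-fold (3.62 to 4.00). Itih1, the heavy chain 1 gene of the same family, had 695 and 781 in the empty vector pool against 263 and 289 in the NT-PGC-1α pool, 2.67-fold lower (2.40 to 2.97).

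Saa3 encodes serum amyloid A3, the form of this apolipoprotein that is made outside the liver, in macrophages and adipose cells. It was the gene with more than 1 listed probe. Probe 692966 gave 2628 and 2585 in the empty vector pool against 785 and 704 in the NT-PGC-1α pool. Probe 732279 gave 905 and 987 in the empty vector pool against 278 and 261 in the NT-PGC-1α pool. Neither probe showed overlap, and although they differed in brightness their folds were close, 3.51 (3.29 to 3.74) and 3.50 (3.25 to 3.77). Both probes carry the same gene identifier, so they are readings of 1 gene and not of separate events.

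Fgb and Fgg encode the beta and gamma chains of fibrinogen, which thrombin turns into fibrin. Fgg gave 728 and 731 in the empty vector pool against 209 and 244 in the NT-PGC-1α pool. It was 3.23-fold lower (2.98 to 3.50), with no overlap. The listed Fgb probe gave 355 and 249 in the empty vector pool against 81.9 and 109 in the NT-PGC-1α pool. It did not overlap either, but its arrays were the least alike of the 11 probes, with a ratio of 1.42 between the empty vector arrays, and the decrease of 3.15-fold ran from 2.29 to 4.33. It was also the 1 probe of the 11 that lay below the array median in the empty vector pool.

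The further Fgb probe, 932273, is the 1 probe of the 12 that the study's list did not select. It gave 326 and 149.6 in the empty vector pool against 139 and 142 in the NT-PGC-1α pool. Array A of the empty vector pool stood apart, 2.18 times its partner, while array B was close to the NT-PGC-1α arrays. The 1.57-fold decrease ran from 1.06 to 2.35 over the pairings, and it is counted as lower because the arrays just failed to overlap. Without empty vector array A it was 1.06-fold, and the call was lost. With both probes averaged, Fgb was 2.23-fold lower.

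Cp encodes ceruloplasmin, the copper-carrying ferroxidase of plasma. Its signal was 15915 and 15133 in the empty vector pool against 8758 and 8072 in the NT-PGC-1α pool. There was no overlap, and the decrease was 1.85-fold (1.73 to 1.97). Hp encodes haptoglobin, which binds free hemoglobin. It was bright on every array, at 408455 and 443252 in the empty vector pool against 252397 and 249859 in the NT-PGC-1α pool. The arrays of the pools were apart, with a 1.69-fold decrease (1.62 to 1.77). Centring the arrays on their 75th percentile left 1.46-fold for Hp, below the threshold of 1.5.

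Serping1 encodes the C1 inhibitor, a serpin that restrains the classical complement pathway and the contact system. The empty vector arrays read 5646 and 5900.2 and the NT-PGC-1α arrays 3435 and 3562, which is 1.65-fold lower (1.58 to 1.72) with no overlap. Mbl2 encodes mannose-binding lectin C, which starts the lectin pathway of complement on microbial sugars. Its signals were 3115 and 2875 in the empty vector pool against 1868 and 1773 in the NT-PGC-1α pool. The decrease was 1.64-fold (1.54 to 1.76), and the arrays of the pools did not overlap. Both genes were chosen for a decrease, so their shared direction says nothing of complement.

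**Figure D2:**
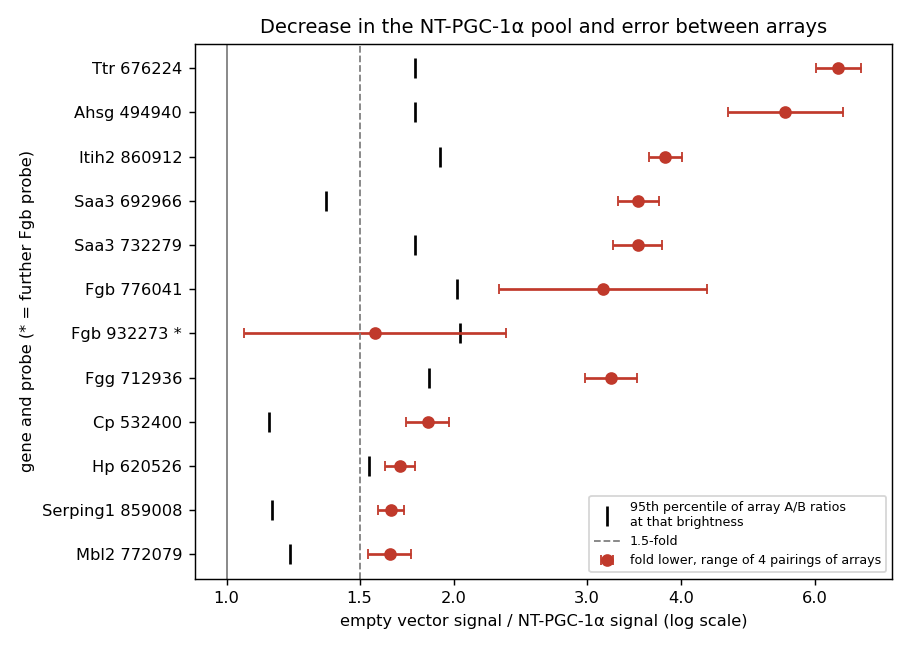
Decrease of each probe, as empty vector over NT-PGC-1α signal (log axis), with bars for the range over the 4 pairings of arrays, black ticks for the 95th percentile of the ratio between arrays of one pool at that brightness, and a dashed line at 1.5-fold. For the 11 listed probes, which were selected on these same arrays, the whole bar lies beyond the tick. The share of all probes for which this holds is not given. For the further Fgb probe the bar reaches from 1.06 to 2.35 across its tick at 2.04.

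The error between arrays was judged from all probes, which were sorted by mean signal into 20 bins. In each bin the 95th percentile of the ratio between arrays A and B of one pool was taken. It was 1.78 at the brightness of Ttr, Ahsg and the dimmer Saa3 probe, 1.86 for Fgg, 1.92 for Itih2 and 2.02 for the listed Fgb probe. It was smaller for the brighter probes, at 1.35 for the other Saa3 probe, 1.21 for Mbl2, 1.15 for Serping1 and 1.14 for Cp, and 1.54 for Hp. The smallest pairing of each of the 11 listed probes was beyond the value of its bin, by the least for Hp, with 1.62 against 1.54. These probes were listed for a fold and a p value on these same arrays, which favoured that result. The share of all probes that were beyond the value of their bin is not given here, so nothing is read from the count. For the further Fgb probe the smallest pairing, 1.06, was well inside the value of its bin, 2.04. This compares 2 pools with the reading error of arrays and says nothing of the spread between cultures.

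The 7 probes that were at least 2-fold lower were Ttr, Ahsg, Itih2, Fgb, Fgg and both of Saa3, and of these the brighter Saa3 probe alone stayed above the array median in both pools. Cp, Hp, Serping1 and Mbl2 stayed above it on all 4 arrays and were 1.64 to 1.85-fold lower. Both the fold and the place below the median reflect the decrease that chose the genes, and no relation between fold and brightness is drawn from these probes. Over all probes, the background differed with brightness. In the bin of Ttr, Ahsg and the dimmer Saa3 probe, 30.4% of 1650 probes were counted as lower, and in those of Cp and Hp 3.82% and 4.3%. Of the probes in its own bin, 1.82% were at least as low as Hp, 1.27% as low as Cp, 4.85% as low as Serping1 and 9.02% as low as Mbl2. The same share was 2.0% for Ttr, 3.09% for Ahsg, 2.79% for Itih2, 9.57% for Fgg and 0.727% for the listed Fgb probe, and it was 1.03% and 6.67% for the brighter and dimmer Saa3 probes. By this share alone Hp, 1.69-fold lower, and Ttr, 6.45-fold lower, lay about equally far out in their bins. Beside the error between arrays they differed, with a smallest pairing of 1.62 against 1.54 for Hp and 6.03 against 1.78 for Ttr. The shares of the bins describe where each probe lay and are no test.

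**Figure D3:**
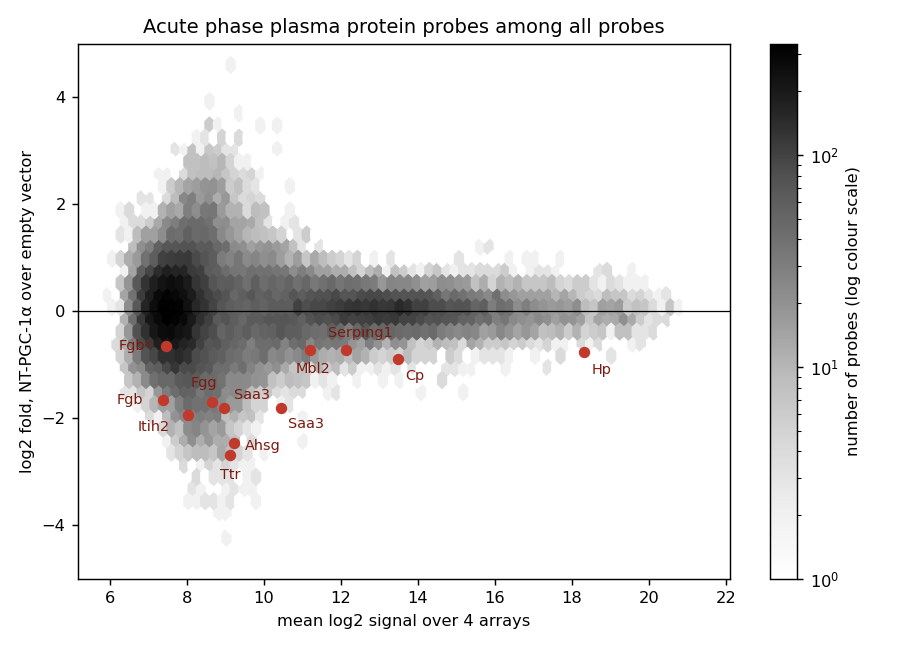
Log2 fold of NT-PGC-1α over empty vector against mean log2 signal for all 33012 probes, as hexagons whose grey shows the number of probes on a log scale, with the 12 probes in red (Fgb* is the further probe). Dim probes spread more widely than bright ones, and Cp and Hp lie at the lower edge of the bright probes although their folds are smaller than those of Ttr or Ahsg.

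No background reading was used, so signals near the lower end have no known distance from an empty spot. Where signals below the array median were raised to it, Ttr was 3.40-fold and Ahsg 3.36-fold lower, the dimmer Saa3 probe 2.25-fold, Fgg 1.74-fold and Itih2 1.22-fold, and the listed Fgb probe had no difference left because all its values lay below the median. The brighter Saa3 probe, Cp, Hp, Serping1 and Mbl2 kept their folds by construction. Over all settings tried, the decrease of Ttr ranged from 3.40 to 7.21-fold and that of Cp from 1.75 to 2.10-fold. Serping1 ranged from 1.61 to 1.93-fold and Mbl2 from 1.58 to 1.97-fold.

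**Figure D4:**
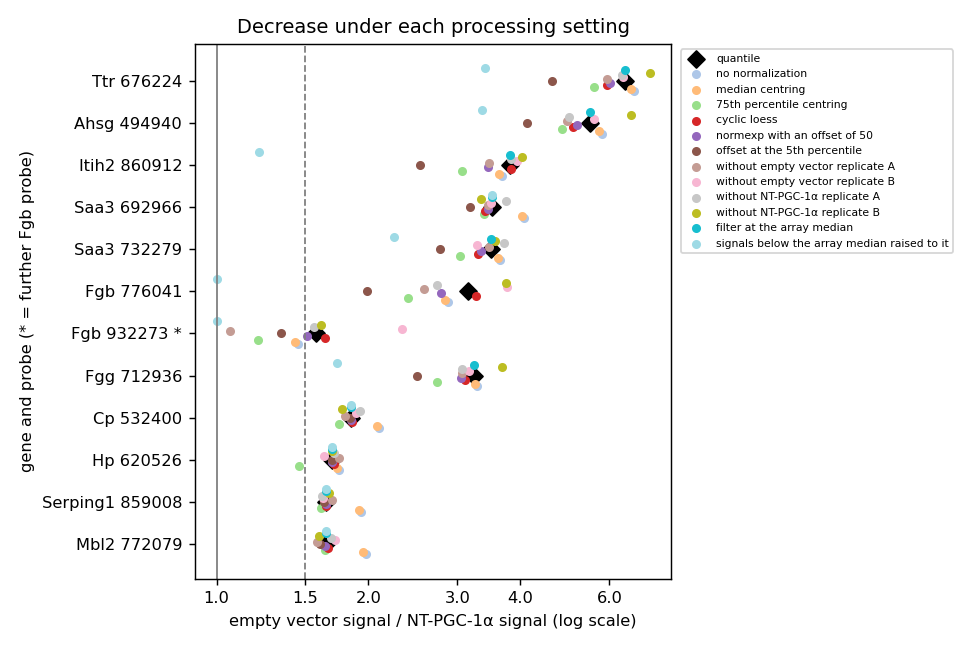
Decrease of each probe (empty vector over NT-PGC-1α signal, log axis) under the reported setting, as black diamonds, and under each alternative, as coloured points, with a dashed line at 1.5-fold. Ttr, Ahsg, Itih2, Fgb and Fgg, which are dim in at least one pool, spread the most, and among the listed probes Hp, Itih2 and Fgb each have a setting below 1.5-fold.

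Other plasma proteins were looked up in lists by role. Of 143 such genes 31 had a named probe, all of them from the study's list of changed genes, so that these counts depend on that choice. Without the 10 genes above, 21 remained, of which 14 were lower and 7 higher, with a median log2 fold of -0.85. On the study's list as a whole 42.8% of probes were lower by the rule used here and 33.6% higher.

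Of 38 positive acute phase genes 8 were named, and all 8 were lower: Saa3, Hp, Cp, Fgb, Fgg and 3 more. Serpina3n, an antichymotrypsin-like serpin, gave 22679 and 21796 in the empty vector pool against 7176 and 6926 in the NT-PGC-1α pool, 3.15-fold lower (3.04 to 3.27). Serpina3k was 5.38-fold lower (4.69 to 6.17), from 957 and 918 to 196 and 155. The Serpina3 genes are near-identical copies, and the Serpina3k probe lists several gene identifiers. Of 2 further probes that share one of them, 1 was 6.97-fold lower and the other overlapped between the pools. Lcn2, the iron-siderophore binding lipocalin 2, was 1.60-fold lower (1.55 to 1.65).

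Of 15 negative reactants and carriers 5 were named. Ttr, Ahsg, Itih2 and Itih1 were lower. Azgp1, zinc-alpha-2-glycoprotein, known as a lipid-mobilizing adipokine, went the other way, with 138 and 108 in the empty vector pool against 937 and 1069 in the NT-PGC-1α pool, 8.21-fold higher (6.79 to 9.93). The genes chosen for lower signals include proteins that rise and proteins that decline in an acute phase. Their shared direction follows from that choice and says nothing of either class.

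In complement and collectins, 6 of 39 genes were named, and 5 were lower: Serping1, Mbl2, the terminal complement inhibitor clusterin (Clu, 2.24-fold), the scavenger collectin Colec12 (1.85-fold) and the lectin Itlna (2.64-fold). A further Itlna probe was 1.15-fold lower, short of 1.5. Crry, a membrane regulator that blocks C3 activation, had 418 and 423 in the empty vector pool against 1755 and 1766 in the NT-PGC-1α pool, 4.18-fold higher (4.15 to 4.22).

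Of 35 coagulation and fibrinolysis genes outside the fibrinogen chains 7 were named. Lower were the fibrinogen-like Fgl1 (1.77-fold), the plasminogen activator Plat (1.80-fold), the protease inhibitor Serpine2 (2.12-fold) and the thrombin receptor F2rl3 (5.52-fold). A further F2rl3 probe overlapped between the pools. Higher were F13b, the carrier subunit of factor XIII (2.80-fold, 2.23 to 3.53), coagulation factor V (F5, 2.02-fold, 1.86 to 2.18) and Tfpi, the inhibitor of tissue factor (2.00-fold). A brighter probe that shares the identifier of Tfpi overlapped, with 11622 and 12245 against 12131 and 11119. Among 16 apolipoproteins 5 were named. Apod (6.71-fold), Apoa4 (2.06-fold) and Apoc3 (1.66-fold) were lower, and Apoc2 (1.58-fold) and Apoc4 (1.73-fold) were higher. Apoc2 and Apoc4 are neighbours in one gene cluster.

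**Figure D5:**
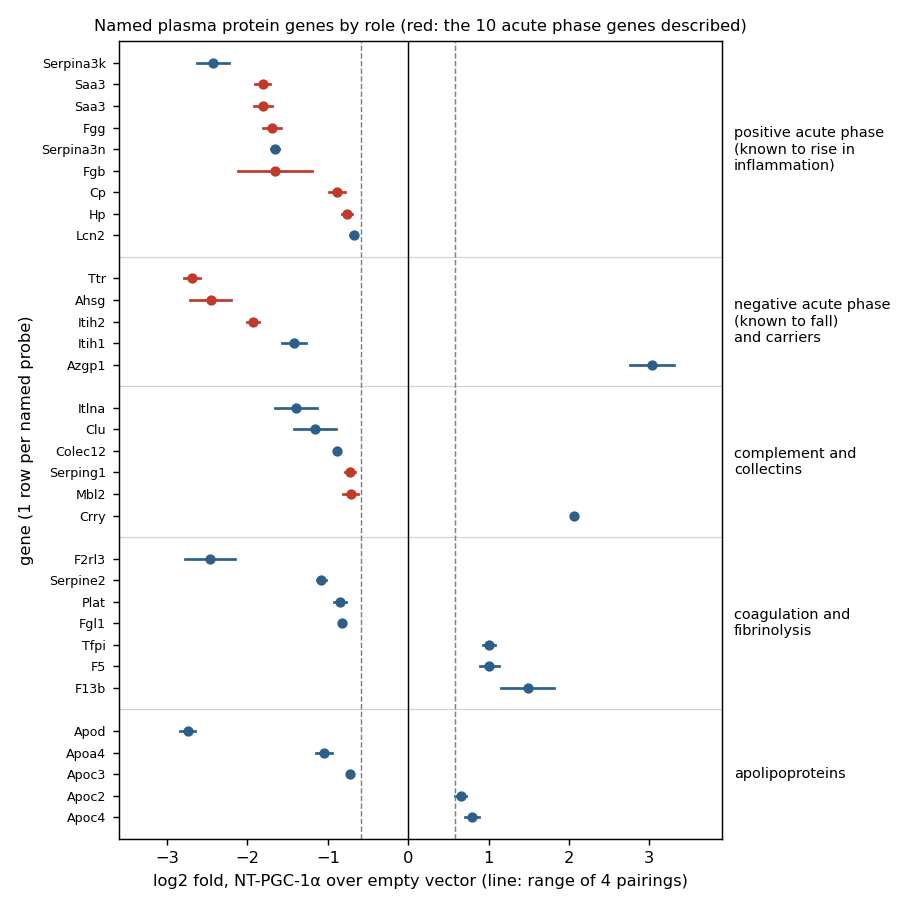
Log2 fold of NT-PGC-1α over empty vector (points, with lines for the range over 4 pairings) for each named plasma protein probe by role, with the 10 genes in red, other genes in blue and dashed lines at 1.5-fold. The 8 positive reactants lie to the left, and all but 3 of them are among the 10 genes chosen for a decrease. Each other group holds a gene or more on the right, Azgp1, Crry, F13b, F5, Tfpi, Apoc2 or Apoc4. Further probes that share a gene identifier are not plotted, among them the Serpina3k probe that overlapped between the pools.

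The study's acute phase response signaling group held 19 genes by symbol, the 10 above and 9 others, and all were lower because the list was made of genes with lower signals on these arrays. Serpina3n and Serpina3k were given above. Within the interleukin-1 system, Il1r1, the signalling receptor, gave 12437 and 11897 in the empty vector pool against 6326 and 6383 in the NT-PGC-1α pool, 1.91-fold lower (1.86 to 1.97). Il1rn, the receptor antagonist, was 2.03-fold lower (1.96 to 2.10). Mapk13, a p38 family kinase, was 3.55-fold lower (3.23 to 3.91). Jun, a subunit of AP-1, was 1.53-fold lower, Socs5, a suppressor of cytokine signalling, 1.71-fold, and Crabp2, a retinoic acid carrier, 1.88-fold.

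A wider list of 57 genes of cytokine signalling and acute phase transcription had 14 named, with 8 lower, 2 higher and 4 neither. Of the 14, 10 were named through the study's list, which selected changed genes and of which 42.8% of probes were lower. The other 4, Lif, Stat5a, Stat5b and Cebpb, were named from RefSeq, and of all probes named that way 17.1% were lower. Beyond those just given, Lif, an interleukin-6 family cytokine, was 1.68-fold lower (1.27 to 2.23). Higher were Lifr, its receptor (2.80-fold, 2.25 to 3.48), and Il1r2, the decoy receptor for interleukin-1 (2.18-fold, 1.88 to 2.53). The 4 that met neither rule were Jak1 (1.31-fold higher), Stat5a (1.12-fold lower), Stat5b, which overlapped, and Cebpb. Cebpb encodes a C/EBP factor, and its 2 probes moved apart. One read 640146 and 593776 in the empty vector pool against 515079 and 544100 in the NT-PGC-1α pool, 1.16-fold lower (1.09 to 1.24). The other was 1.18-fold higher (1.10 to 1.28), so no direction is given for the gene. Il6, Stat3 and the glucocorticoid receptor gene were not analysed here.

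Markers of other cells differed between the pools as well. All of those with a named probe came from the study's list of changed genes, so that their counts depend on that choice, beside 42.8% of probes lower on that list and 17.6% of all probes. All 4 named preadipocyte and fibroblast markers of 10 were lower: Thy1 (8.59-fold), Dcn (2.73-fold), Col1a1 (1.59-fold) and, just past the threshold, Col3a1 (306915 and 345285 against 207638 and 225783). Their summed signal was 418910 and 459991 in the empty vector pool against 272945 and 292115 in the NT-PGC-1α pool. Such sums weigh bright probes most, and most of this one came from Col3a1. Of 9 leukocyte markers 3 were named, and Cd68 (2.43-fold) and Lyzs (1.97-fold) were lower while Cd14 was 1.37-fold higher. Their sums were 6517 and 6178 against 3694 and 3296. The summed adipocyte signal, of Ppargc1a and Retn, was 965 and 1151 in the empty vector pool against 2741 and 2247 in the NT-PGC-1α pool, and the first of these carries the expressed gene. None of these probes was at 0. Of 8 hepatocyte markers 0 had a named probe. The part of these cell types in the lower signals of the 10 genes was not tested.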

How the data were processed

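RNA pools of brown adipocytes with NT-PGC-1α or empty vector, 1 per group, were each hybridized to 2 ABI Mouse Genome Survey arrays, and groups were taken from the sample labels. The authors deposited an intensity for each of 33012 probes per array, on a linear scale, read on an Applied Biosystems chemiluminescent analyzer and handled in R 2.2.1 per the submitters' processing notes. The quantile normalization and the filters on signal to noise and flags that the methods describe came later and are not in these values. Whether background was subtracted is not given in the sources used here.

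Log2 intensities of all probes were quantile normalized in R 4.3.3 with limma 3.58.1, with no offset, filter or background correction. Folds are differences of mean log2 values. The number of arrays limits the precision. Other steps used Python 3.11.15, numpy 2.4.6, pandas 2.3.3, scipy 1.17.1 and matplotlib 3.10.9. The calculation was tested on simulated data in which a far smaller share of probes changed than here, equally up and down. That test does not cover changes in so many probes. The gene symbols of 1342 probes came from the study's list of changed genes, by probe number, and of 293 more from RefSeq accessions (GRCm38.p6). That list, from which no value was taken, held genes more than 1.25-fold higher (765 probes) or more than 1.5-fold lower (577 probes). The study also required a p value below 0.05 for both. Its methods name a Student t test or ANOVA for group comparisons and do not say which test gave the p values of the arrays. The text names the 10 genes with all their probes, the study's acute phase signaling genes, genes of the same families and of complement and coagulation, and up to 4 genes with the greatest fold of each other list. Jak1, Stat5a, Stat5b, Cebpb, Lcn2, Apoc2 and Lif were named for completeness after their values were seen, and some genes that the rule covers are not reported here. The 10 genes, the lists and the settings were chosen with earlier results of these data known, and the raising of low signals to the array median after these values were seen. Alternatives were centring on the median or the 75th percentile, cyclic loess, leaving the arrays without normalization, normexp (offset 50), adding the 5th percentile, a 2-fold threshold, the mean over probes of an identifier, leaving out each array, keeping probes whose A and B signals in at least 1 pool exceeded the array median, the methods' t-test, and limma with and without the array letter as a replicate block.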

Additional observations from a re-analysis of the deposited data

How the results depend on the processing

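The 11 listed probes stayed on the lower side under every setting except the raising of low signals to the array median, where the listed Fgb probe had no difference. With 75th percentile centring 10 passed, since Hp fell short, and with the filter at the array median the 10 that were kept passed. At least 2-fold, with no overlap, were 7 of these probes, 15 plasma protein genes lower and 2892 of all probes lower, and with 1.5-fold 11, 24 and 5802. The further Fgb probe was counted as lower in 0 cases without normalization, with median or 75th percentile centring, with the 5th percentile offset of 111.94, with the filter, at 2-fold, and under the methods' t-test and limma without the block. Leaving out each array gave 0 to 1, with 0 without empty vector array A. All probes lower numbered 3759 with 75th percentile centring, 3109 with the filter, which kept 17726 probes, and 3428 with the methods' t-test at 1.5-fold. Centring on the 75th percentile moved the median log2 fold of all probes to 0.22 and the share of lower among called probes from 51.0% to 28.9%. The median log2 fold of the 11 probes, -1.69, was -1.45 with that centring, -1.61 with normexp, -1.32 with the 5th percentile offset, -0.80 with low signals raised, and -1.83 to -1.62 leaving out each array. The cause of these moves was not tested beyond what each setting does by construction.

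The methods' t-test, applied here to the arrays, and limma set 2 arrays against 2 and measure the error between arrays alone. After Benjamini-Hochberg adjustment the t-test at 1.5-fold kept 0 of the 11 probes, 0 further probes, 92 probes lower in all, 0 plasma protein genes lower and 1 higher. The array letters share only a name (correlation of deviations between same-lettered arrays -0.0185). In the paired fit, limma with the array letter as replicate block, 1 residual degree of freedom remained and 0 of the 11, 0 further probes, 0 of all probes and 0 plasma protein genes, lower or higher, passed an adjusted 0.05. At an unadjusted 0.05 it had 11, 0 and 12442. Signals near or below the array median limit Ttr, Ahsg, Itih2, Fgb, Fgg and the dimmer Saa3 probe.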
